A study of Zea mays with 12 samples.

Results

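*ZmNF-YB6* (GRMZM2G124663) and *ZmFUS3* (GRMZM2G035701) are maize genes named for relatives that direct embryo development, and both were transcribed in the young bract primordium of the ear. They were chosen by gene identifier as regulators known from embryos and expressed in B73 bract primordia, and they are 2 of the 20168 genes in the deposited table. The study asked which transcripts depend on *tasselsheath1* (*tsh1*) and *tsh4*, a pair of genes that hold back growth of the leaf beneath each inflorescence branch. RNA was sequenced from laser-microdissected ear bract primordia of 4 genotypes with 3 biological replicates each, taken at the node where the bract ridge had formed before its meristem could be seen. B73 served as wild type. The *tsh1* plants carried *tsh1-ref*, a *Mu* transposon insertion with a large deletion that also reaches neighboring genes, the *tsh4* plants carried *tsh4-rm*, a *Mutator* insertion in the first intron, and the *tsh1 tsh4* plants carried both. All mutants had been introgressed repeatedly into B73, and all plants were grown untreated in a greenhouse. How many ears or plants went into each library was not given in the sources used here, and the amplified RNA of captured cells was the starting material throughout.

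NF-Y is a transcription factor built from A, B and C subunits that binds the CCAAT box. In Arabidopsis, most B subunits are general partners in this complex, whereas LEAFY COTYLEDON1 and its closest relative LEC1-LIKE form a small class needed in embryos. FUS3, a B3 domain protein that in Arabidopsis binds the RY motif of seed gene promoters, acts in one network with LEC1, LEC2 and ABI3 to promote seed maturation, to lower gibberellin (GA) and raise abscisic acid (ABA), and to keep leaf traits out of the embryo.

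Both transcripts were abundant enough to be counted in every library. Expression is given as CPM, reads of a gene scaled to the size of the library and normalized between libraries by the authors, and is never compared here between the 2 genes because transcript length was not taken into account. *ZmNF-YB6* rested on between 257 and 35923 reads per library and *ZmFUS3* on between 128 and 1723, from libraries of 49481413 to 110703826 reads on the listed genes.

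In B73, *ZmNF-YB6* was at 317, 155 and 262 CPM in replicates 1, 2 and 3. The *tsh1* libraries had 46.7, 189 and 148 CPM, the *tsh4* libraries 19.2, 12.5 and 24.6 CPM, and the *tsh1 tsh4* libraries 21.9, 4.06 and 12.8 CPM. Thus every library with the *tsh4* mutation was below every library without it, *tsh1* overlapped B73, and *tsh1 tsh4* overlapped *tsh4*. B73 averaged 245 ± 82.3 CPM (SD, n = 3), *tsh1* 128 ± 73, *tsh4* 18.8 ± 6.07 and *tsh1 tsh4* 12.9 ± 8.90. As a share of the B73 mean, these were 52.2%, 7.67% and 5.27% in the 3 mutants.

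*ZmFUS3* was at 15.2, 18.6 and 12.2 CPM in the B73 libraries and at 11.1, 8.97 and 15.3 CPM in those of *tsh1*. It was at 2.06, 2.52 and 2.5 CPM in *tsh4* and at 2.76, 2.45 and 2.47 CPM in *tsh1 tsh4*. Here too the *tsh4* and *tsh1 tsh4* libraries all lay below the B73 and *tsh1* libraries, and the genotypes overlapped within each of those pairs. B73 averaged 15.3 ± 3.21 CPM (SD, n = 3), *tsh1* 11.8 ± 3.25, *tsh4* 2.36 ± 0.257 and *tsh1 tsh4* 2.56 ± 0.175, so the mutants stood at 76.8%, 15.4% and 16.7% of B73. In bulk tissue, fewer cells that express a gene and less RNA per cell cannot be told apart.

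**Figure D1:**
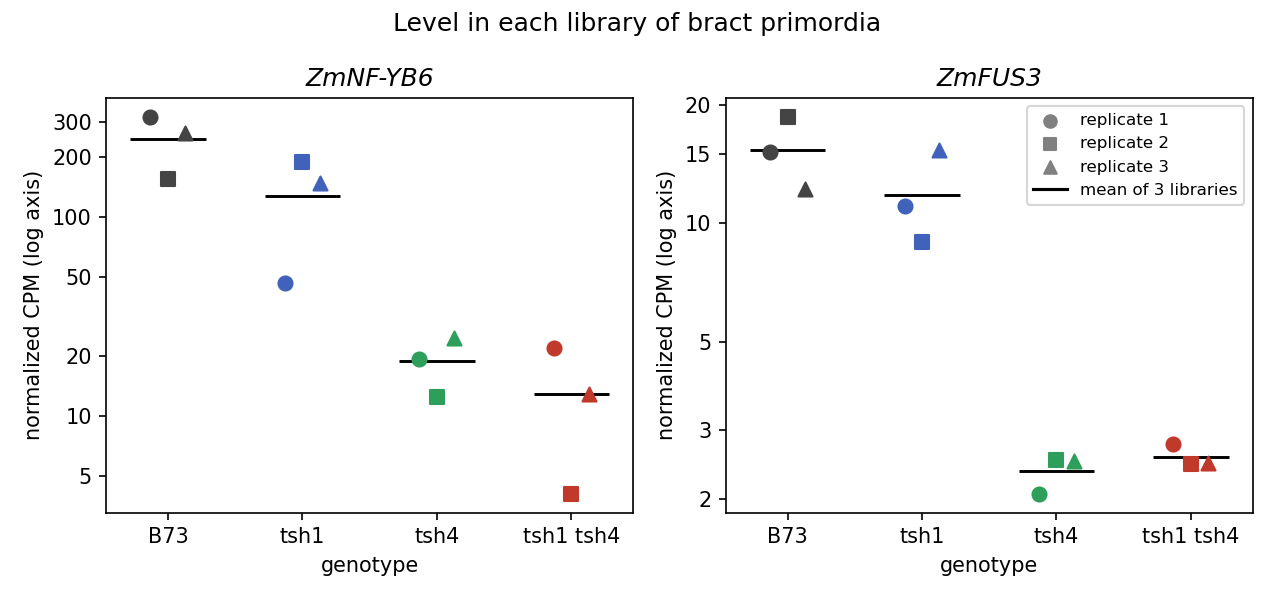
Normalized CPM (log axis) of *ZmNF-YB6* and *ZmFUS3* in each of the 12 bract primordium libraries by genotype; marker shapes are replicates and bars are means of 3 libraries. For both genes, all *tsh4* and *tsh1 tsh4* libraries sit below all B73 and *tsh1* libraries, and the replicates of *ZmNF-YB6* are more spread than those of *ZmFUS3*.

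Loss of *tsh4* alone went with a 13-fold lower mean of *ZmNF-YB6* and a 6.51-fold lower mean of *ZmFUS3*. The lowest B73 library exceeded the highest *tsh4* library 6.31 times for *ZmNF-YB6* and 4.85 times for *ZmFUS3*. In limma, fitted to log2(CPM + 0.1) of all 12 libraries, *ZmNF-YB6* fell by 3.69 on the log2 scale (SE 0.53, 95% interval -4.81 to -2.57, Benjamini-Hochberg adjusted p = 0.000332). For *ZmFUS3* the log2 fold change was -2.64 (SE 0.22, 95% interval -3.11 to -2.16, adjusted p = 2.06e-06 in limma). A gene was called, and is said to rise or fall, where its adjusted p did not exceed 0.05 and its level changed by 1 or more on the log2 scale. Both genes were called lower in *tsh4*, where 1.77% of all 20168 genes were called lower, 2.04% higher and 3.81% in either direction. *ZmNF-YB6* was 10th and *ZmFUS3* 43rd in size among the 357 genes called lower.

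With both *tsh1* and *tsh4* mutated, the mean was 19-fold below B73 for *ZmNF-YB6* and 6.0-fold below for *ZmFUS3*. The lowest B73 library was 7.10 times the highest *tsh1 tsh4* library for the first gene and 4.43 times for the second. Relative to B73, *ZmNF-YB6* fell by 4.47 on the log2 scale (95% interval -5.59 to -3.36, adjusted p = 2.67e-05 in limma). The fall of *ZmFUS3* was -2.52 (95% interval -2.99 to -2.05, adjusted p = 1.28e-06 in limma). Both were among the 3.15% of genes called lower in the double mutant (5.84% in either direction), with *ZmNF-YB6* 13th and *ZmFUS3* 117th of 635 by size. The comparisons of the 3 mutants with B73 use the same B73 libraries and are not independent of each other.

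*tsh1* alone gave no call for either gene, in a comparison where 0.719% of all genes were called lower and 1.16% in either direction. *ZmNF-YB6* had a log2 fold change of -1.10 with a 95% interval of -2.22 to 0.01 (adjusted p = 0.548 in limma). This estimate leaned on *tsh1* replicate 1, at 46.7 CPM, and was -0.49 without it. For *ZmFUS3* the value was -0.39, with an interval from -0.86 to 0.08 (adjusted p = 0.674 in limma). These intervals include no change, and at their lower ends they include a fall past the log2 fold change of 1 for *ZmNF-YB6* but not for *ZmFUS3*.

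The direct comparison of the single mutants placed *tsh4* below *tsh1* for both genes. The lowest *tsh1* library was 1.90 times the highest *tsh4* library for *ZmNF-YB6* and 3.56 times for *ZmFUS3*. *ZmNF-YB6* fell by 2.59 on the log2 scale (95% interval -3.70 to -1.47, adjusted p = 0.00744 in limma), although leaving out *tsh4* replicate 2 gave -2.32 and an adjusted p of 0.0503. *ZmFUS3* fell by 2.24 (95% interval -2.71 to -1.77, adjusted p = 8.34e-06 in limma). In this comparison 1.12% of all genes were called lower and 3.37% in either direction.

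Adding the *tsh4* mutation to *tsh1* gave a similar picture. Relative to *tsh1*, *ZmNF-YB6* fell by 3.37 in *tsh1 tsh4* (95% interval -4.49 to -2.25, adjusted p = 0.000688 in limma) and *ZmFUS3* fell by 2.13 (95% interval -2.60 to -1.66, adjusted p = 1.32e-05 in limma), against 1.50% of all genes called lower and 3.60% called in either direction. Adding the *tsh1* mutation to *tsh4* gave no call, where 0.674% of genes were called. The log2 difference of *tsh1 tsh4* from *tsh4* was -0.78 for *ZmNF-YB6* (95% interval -1.90 to 0.33, adjusted p = 0.965 in limma), and it was -0.11 without *tsh1 tsh4* replicate 2, the library at 4.06 CPM. For *ZmFUS3* it was 0.12 (95% interval -0.36 to 0.59, adjusted p = 0.975 in limma). The interval for *ZmFUS3* holds any difference from *tsh4* to less than a log2 fold change of 1, whereas that for *ZmNF-YB6* does not.

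**Figure D2:**
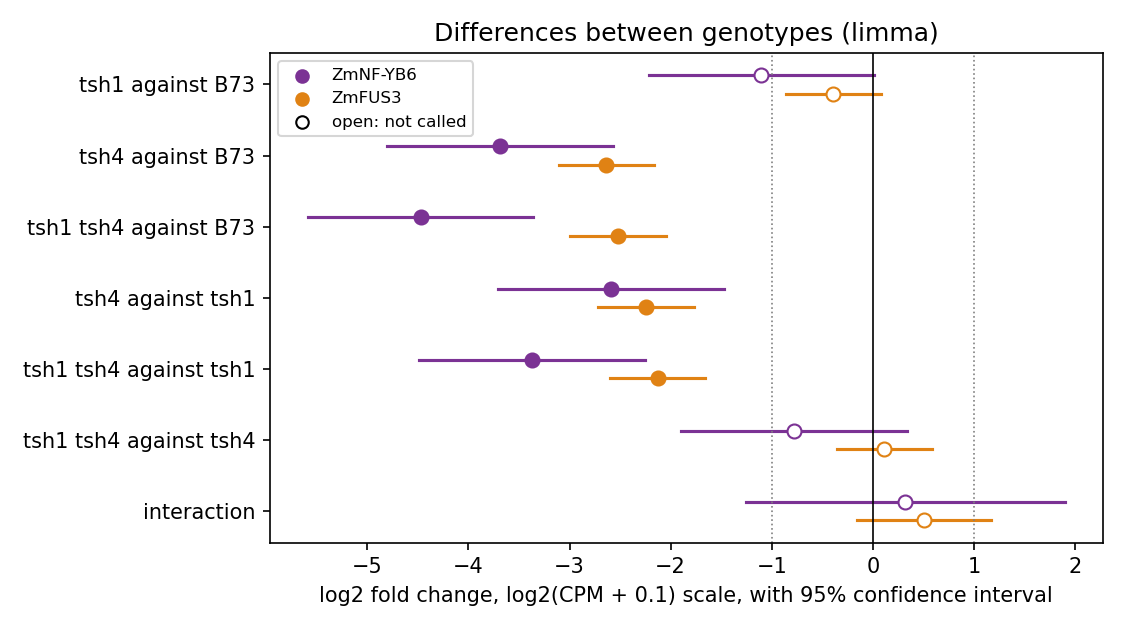
Log2 fold changes of *ZmNF-YB6* and *ZmFUS3*, on the log2(CPM + 0.1) scale, for the comparisons of genotypes, with 95% intervals from limma; open circles were not called and dotted lines mark a log2 change of 1. The intervals of every comparison that adds or swaps in the *tsh4* mutation lie below 0, and the others cross 0. In the former, log2 fold changes run from -4.47 to -2.59 for *ZmNF-YB6* and from -2.64 to -2.13 for *ZmFUS3*.

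Whether the effect of *tsh4* differed with the state of *tsh1* was tested as an interaction, which was called for 0.288% of genes on adjusted p alone and for neither gene here. The interaction was 0.32 on the log2 scale for *ZmNF-YB6* (SE 0.75, 95% interval -1.26 to 1.90) and 0.51 for *ZmFUS3* (SE 0.31, 95% interval -0.16 to 1.17), both with an adjusted p of 1.0 in limma. For *ZmNF-YB6* the sign turned when single libraries were left out, to -0.29 without *tsh1* replicate 1 and to -0.21 without *tsh1 tsh4* replicate 1. These intervals are wide enough to hold a sizable interaction in either direction for *ZmNF-YB6*.

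By single genes and exact permutation tests over the libraries (2-sided), all 4 pairs of a genotype with and a genotype without the *tsh4* mutation gave p = 0.1 for each gene, the smallest value that 3 against 3 libraries allow. Such a design cannot reach 0.05. The exact permutation p was 0.2 for *ZmNF-YB6* and 0.3 for *ZmFUS3* between B73 and *tsh1*, and 0.5 and 0.6 between *tsh4* and *tsh1 tsh4*. In order of mean level, the *ZmNF-YB6* genotypes ran B73, *tsh1*, *tsh4*, *tsh1 tsh4*, and the *ZmFUS3* genotypes ran B73, *tsh1*, *tsh1 tsh4*, *tsh4*. For each gene, only the step from *tsh1* to the genotype below it separated neighbors without overlap.

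Split into parts of a balanced design, 80.4% of the variance of *ZmNF-YB6* over the 12 libraries (log2 scale) went with *tsh4*, 5.73% with *tsh1*, 0.165% with their interaction and 13.7% with differences among replicates. For *ZmFUS3* the corresponding shares were 95.5%, 0.322%, 1.09% and 3.08%. Across the 17272 genes with a mean of at least 1 CPM, the median share that went with *tsh4* was 7.12%. The share of *ZmFUS3* exceeded that of 99.9% of these genes and the share of *ZmNF-YB6* exceeded that of 98.8%.

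The 2 genes differed in how tightly their replicates held together. Replicates of *ZmNF-YB6* had coefficients of variation of 33.6%, 57.2%, 32.4% and 68.9% for B73, *tsh1*, *tsh4* and *tsh1 tsh4*, whereas counting error alone would give 0.830%, 1.29%, 3.08% and 4.4%. In the double mutant the highest library was 5.39 times the lowest, at 257 reads, whose 95% Poisson interval was 3.58 to 4.59 CPM. Read depth was therefore not the limit on these means. *ZmFUS3* varied by 20.9%, 27.5%, 10.9% and 6.83% in the same order, with counting errors of 3.12%, 3.85%, 8.23% and 7.74%, so its *tsh4* and *tsh1 tsh4* libraries differed by about what counting gives. These intervals and counting errors cover counting only, since the RNA was amplified before sequencing. The residual SD of *ZmNF-YB6* was 0.89 on the log2 scale, above that of 99.9% of the 17272 genes (median 0.26), and that of *ZmFUS3* was 0.26, above 51.0%.

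Replicates of one genotype tended to differ from each other along one shared direction, which held 44.7% of the variance within genotypes over all genes with a mean of at least 1 CPM. The deviations of *ZmNF-YB6* from its genotype means had r = 0.769 with this direction and those of *ZmFUS3* r = -0.139, beside a median absolute r of 0.573 over genes. *ZmNF-YB6* was high along it in *tsh1* replicate 2 and *tsh1 tsh4* replicate 1, and low in *tsh1 tsh4* replicate 2 and *tsh1* replicate 1. The 12 points share libraries and their normalization, and the part of this direction in the spread of *ZmNF-YB6* was not tested.

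Over the 12 libraries the 2 genes had Pearson r = 0.890 and Spearman rho = 0.790 with each other on the log2 scale. The libraries fell into a group with and a group without the *tsh4* mutation, and within genotypes the deviations of the genes had r = -0.0564. The pair thus followed genotype, and no shared order was seen within genotypes, where so few libraries leave r uncertain. The ratio of *ZmNF-YB6* to *ZmFUS3* within a library had a log2 difference from B73 of -0.71 in *tsh1* and -1.05 in *tsh4*, where libraries overlapped (exact permutation p = 0.6 and 0.3). In *tsh1 tsh4* it was -1.95 with no overlap (exact permutation p = 0.1, the smallest possible).

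**Figure D3:**
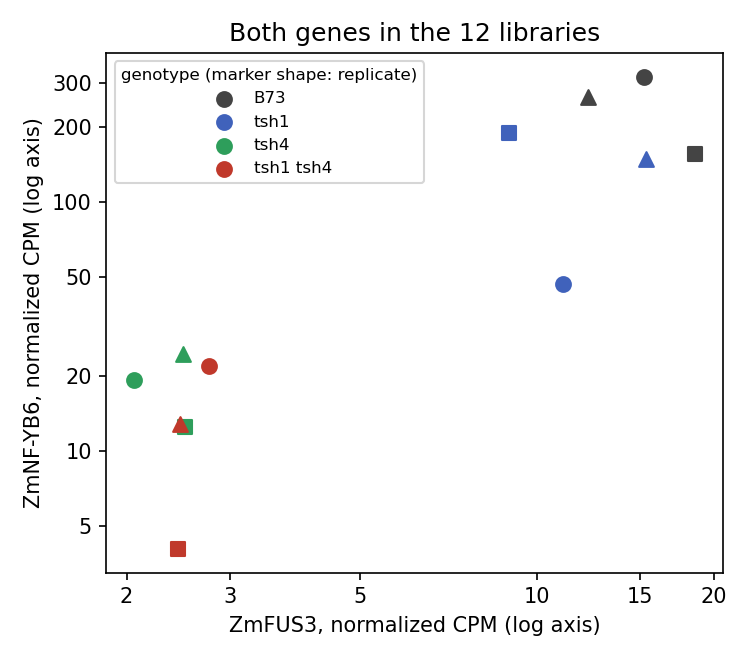
*ZmNF-YB6* against *ZmFUS3* in the 12 libraries (normalized CPM, log axes), colored by genotype with replicates as marker shapes. The *tsh4* and *tsh1 tsh4* libraries form a group at the lower left and the B73 and *tsh1* libraries one at the upper right (r = 0.890), with no common order inside the genotypes (r = -0.0564 for the deviations).

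The *tsh4* transcript itself (GRMZM2G307588, an SBP box gene) was at 1323 ± 249 CPM in B73 and 1063 ± 273 in *tsh1* (SD, n = 3). It was at 73.7 ± 7.83 CPM in *tsh4* and 60.1 ± 16.7 in *tsh1 tsh4*, with every mutant library below every other, as the labels say. The row taken as *tsh1* (GRMZM2G325850) averaged 67.4 CPM in B73, 22.5 in *tsh4*, 0.527 in *tsh1* and 0.521 in the double mutant. That row had been assigned to *tsh1* from these levels and is no independent check of the labels. *ZmNF-YB6* had r = 0.939 and *ZmFUS3* r = 0.974 with the *tsh4* transcript over the 12 libraries, beside 0.343 and 0.188 with the *tsh1* row. Because *tsh4* is the mutated gene, these r restate the split of the libraries by genotype. For deviations within genotypes the r with *tsh4* was 0.726 for *ZmNF-YB6* and 0.126 for *ZmFUS3*. The deviations of *ZmNF-YB6* had r = 0.769 with the shared direction of the replicates, and its r with *tsh4* apart from that direction was not tested.

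Genes with the most similar patterns were picked by Pearson r of log2(CPM + 0.1) over the 12 libraries, and their values are a description only. Closest to *ZmNF-YB6* was GRMZM2G156861 (*lox1* in RefSeq, a lipoxygenase), with r = 0.982 and 5.85, 3.70, 0.980 and 0.782 CPM on average in B73, *tsh1*, *tsh4* and *tsh1 tsh4*. Its deviations within genotypes had r = 0.903 with those of *ZmNF-YB6*. The next were GRMZM2G062848, GRMZM2G033489, GRMZM2G067830 and GRMZM2G429118, with r of 0.979, 0.975, 0.971 and 0.964 and deviations at r of 0.837, 0.870, 0.873 and 0.859. These deviations enter the r by which the genes were picked, so their r is no separate result. Over genes, the median absolute r with the shared direction of the replicates was 0.573. For *ZmFUS3* the closest was GRMZM2G035999, with r = 0.980 and means of 7.39, 6.83, 1.2 and 1.43 CPM. It was followed by GRMZM2G137352 at 0.976, by *tsh4* at 0.974, and by GRMZM2G128935 and GRMZM2G099049 at 0.974 and 0.973. Within genotypes these 5 had r between -0.00205 and 0.570 with *ZmFUS3*. *ZmFUS3* ranked 124th of 17271 genes in likeness to *ZmNF-YB6*, and *ZmNF-YB6* ranked 80th in likeness to *ZmFUS3*.

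**Figure D4:**
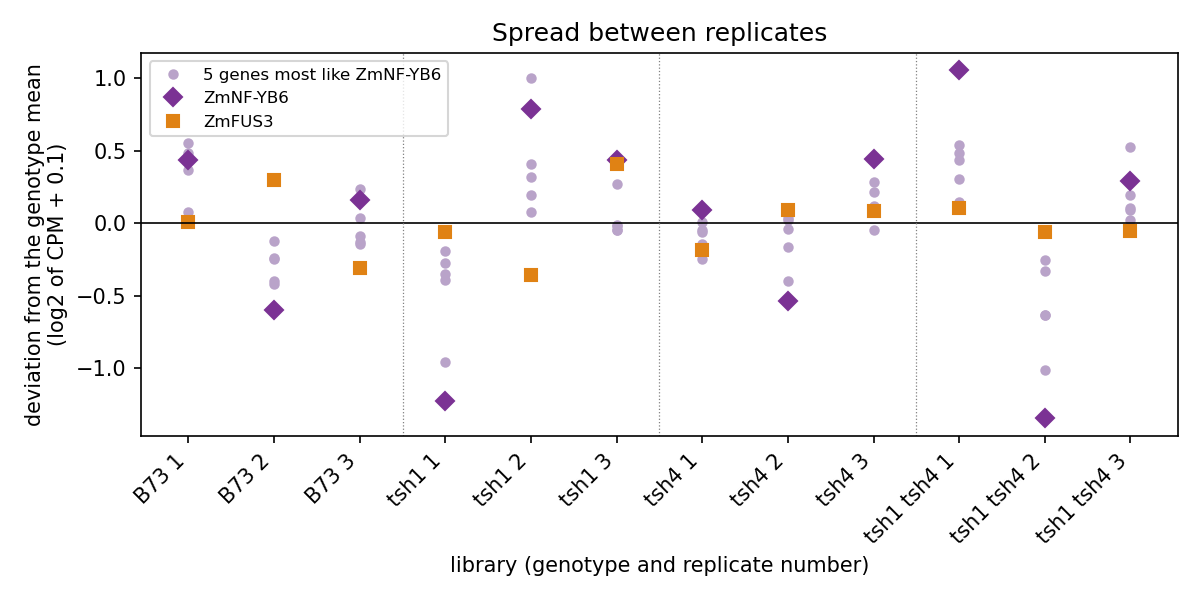
Deviation of each library from the mean of its genotype (log2 of CPM + 0.1) for *ZmNF-YB6* (diamonds), *ZmFUS3* (squares) and the 5 genes most like *ZmNF-YB6* (small circles), by library. *ZmNF-YB6* is farthest below its genotype mean in *tsh1 tsh4* replicate 2 (-1.34) and *tsh1* replicate 1 (-1.22), where the 5 similar genes are also below theirs, and *ZmFUS3* stays within 0.41 of its means. The 5 genes were picked by their r with *ZmNF-YB6* over these same libraries.

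None of the other NF-Y subunits examined, most of them A subunits by symbol, fell or rose in a mutant. Of 16 NF-Y subunits with a symbol in RefSeq, 12 were in the table. None was called in *tsh1*, *tsh4* or *tsh1 tsh4* by limma, edgeR or DESeq2, with 0, 3 and 1 at an unadjusted p under 0.05 in limma. Over all genes, limma called 1.16%, 3.81% and 5.84% in these mutants. At such shares a list of 12 genes can lack a call without differing from other genes. Their median log2 fold changes were -0.04, -0.08 and -0.05, beside medians within 0.01 of 0 for all genes. *CA3P1* (GRMZM2G303465), the sole member with a HAP3 (B subunit) symbol, was at 23.7 ± 2.45 CPM in B73 and 22.8, 22.3 and 21.0 CPM in the 3 mutants. B subunits, the class of *ZmNF-YB6*, were thus hardly covered by this list. The most abundant subunits were *CA5P16*, *NF-YA4* and *NF-YA11*, with log2 fold changes of -0.10, 0.41 and -0.11 in *tsh4*. *NF-YA7*, an A subunit, had the lowest values of the list, at -0.72 in *tsh4* and -0.83 in *tsh1 tsh4* (adjusted p = 0.126 and 0.0507 in limma). Summed over the 12 subunits, the libraries ran from 780 to 844 CPM in B73, 725 to 818 in *tsh1*, 757 to 904 in *tsh4*, and 730 to 867 in *tsh1 tsh4*.

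Only 2 B3 domain genes with an *ABI* symbol could be examined, *ABI22* and *ABI14*. *ABI22* was at 81.1 CPM in B73 and 64.5 in *tsh4*, and *ABI14* at 44.1 and 48.6 CPM. Neither was called in any mutant by limma, edgeR or DESeq2, and neither had an unadjusted p under 0.05 in limma. The shares of all genes called by limma in *tsh1*, *tsh4* and *tsh1 tsh4* were 1.16%, 3.81% and 5.84%. The maize counterparts of further members of the embryo network, *lec1* and *vp1* (the maize *ABI3*), were matched by symbol. Neither was among the 20168 genes that passed the authors' filter, so no level can be given for them.

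Genes that serve the seed gave a mixed picture. Of 46 embryo and seed genes matched by symbol, most of them zeins, 8 were in the table, of which 1 fell in each single mutant and 2 fell in *tsh1 tsh4*, beside 0.719%, 1.77% and 3.15% of all genes called lower. *glb2* (GRMZM2G026703), an embryo storage globulin, was at 21.9, 9.71 and 12.4 CPM in B73 and at 13.9, 9.14 and 12.5 in *tsh1*. It was at 5.49, 5.14 and 5.33 CPM in *tsh4* and at 4.90, 4.90 and 6.69 in *tsh1 tsh4*. All mutant libraries for *tsh4* were again lower than all others, and *glb2* fell by 1.36 in *tsh4* and 1.33 in *tsh1 tsh4* on the log2 scale (adjusted p = 0.00365 and 0.00287 in limma). *mlg3*, a gene for a late embryogenesis abundant protein, fell by 3.88 in *tsh1* and fell by 2.46 in *tsh1 tsh4* (adjusted p = 0.000634 and 0.00678 in limma) and was at -1.82 in *tsh4* (adjusted p = 0.0621), an order unlike that of *ZmNF-YB6* and *ZmFUS3*. *ole17*, an oleosin of oil bodies, was at 39.8 ± 4.43 CPM in B73 and 59.9 ± 12.1 in *tsh1*, and at 23.9 ± 4.29 and 24.5 ± 7.81 in *tsh4* and *tsh1 tsh4*, and was not called. *Floury1* and GRMZM2G146267, matched as *pbf1*, were not called in any mutant. A second identifier with the symbol *pbf1* (GRMZM2G146283) was not among the listed genes. The late embryo genes *ole1*, *Lea14A* and *dhn1* all averaged under 1 CPM. The median log2 fold changes of the 8 genes were -0.18, -0.69 and -0.28, with 5, 7 and 8 of them below B73 in *tsh1*, *tsh4* and *tsh1 tsh4*. In *tsh4*, edgeR called 2 of the 8 and DESeq2 called 1. Also in the table were 5 components of Polycomb complexes, which repress the embryo program in Arabidopsis (*fie2*, *mez1*, *mez2*, *mez3* and *EMF-like*). None was called in a mutant by limma, edgeR or DESeq2, with 1 at an unadjusted p under 0.05 in each comparison. Of all genes, limma called 1.16%, 3.81% and 5.84% in *tsh1*, *tsh4* and *tsh1 tsh4*.

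Among 17 genes for ABA synthesis and signaling, none was called in *tsh1* (5 at an unadjusted p under 0.05 in limma, none by edgeR or DESeq2), 1 fell and 1 rose in *tsh4*, and 2 fell in *tsh1 tsh4*. Over all genes, 1.77% were called lower and 2.04% higher in *tsh4*, and 3.15% lower in *tsh1 tsh4*. *vp14*, which encodes a dioxygenase that commits carotenoids to ABA, was at 1.07 ± 0.128 CPM in B73 and 0.196 ± 0.10 in *tsh4*, where it fell by 2.03 (adjusted p = 0.00110 in limma). This is a low level, at 0.146, 0.131 and 0.312 CPM in *tsh4* replicates 1, 2 and 3, beside the authors' minimum of 0.25 CPM. In *tsh1 tsh4*, *vp14* was at 0.589 CPM and was not called. The kinase gene *SnRK2.5* rose by 1.56 in *tsh4* (adjusted p = 0.0278 in limma), and the receptor genes *PYL5* and *PYL7* fell by 1.97 and by 2.41 in *tsh1 tsh4*. The most abundant members, *PYL2*, *prh1* and *SnRK2.2*, had log2 fold changes of -0.10, 0.03 and -0.22 in *tsh4*.

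Of 5 GA genes, all for GA synthesis or DELLA proteins, 1 fell in *tsh4*, where 1.77% of all genes were called lower. In *tsh1 tsh4* 3 fell, where 3.15% of all genes were called lower. No GA 2-oxidase or GA receptor gene was matched by symbol, so breakdown and perception of GA were not covered. *an1*, for an early step of GA synthesis, was at 5.55 ± 0.464 CPM in B73 and 2.84 ± 0.648 CPM in *tsh1*, and at 1.45 ± 0.192 and 1.71 ± 0.657 CPM in *tsh4* and *tsh1 tsh4*. It fell by 1.87 in *tsh4* and 1.70 in *tsh1 tsh4* (adjusted p = 0.000303 and 0.000398 in limma). In *tsh1 tsh4*, *d3*, a P450 of GA synthesis, fell by 1.63 and *D8*, a DELLA repressor of GA response, by 1.35 (adjusted p = 0.0226 and 6.32e-05 in limma). *D8* averaged 512 CPM in B73, 319 and 311 in the single mutants and 202 in the double mutant, a pattern in which *tsh1* and *tsh4* stood side by side, unlike that of *ZmNF-YB6* and *ZmFUS3*. The related DELLA gene *d9* and *CPS1* were not called. None of the 5 was called in *tsh1* by limma, edgeR or DESeq2, with 3 at an unadjusted p under 0.05 in limma, and the median log2 fold changes were -0.68, -0.72 and -1.35.

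**Figure D5:**
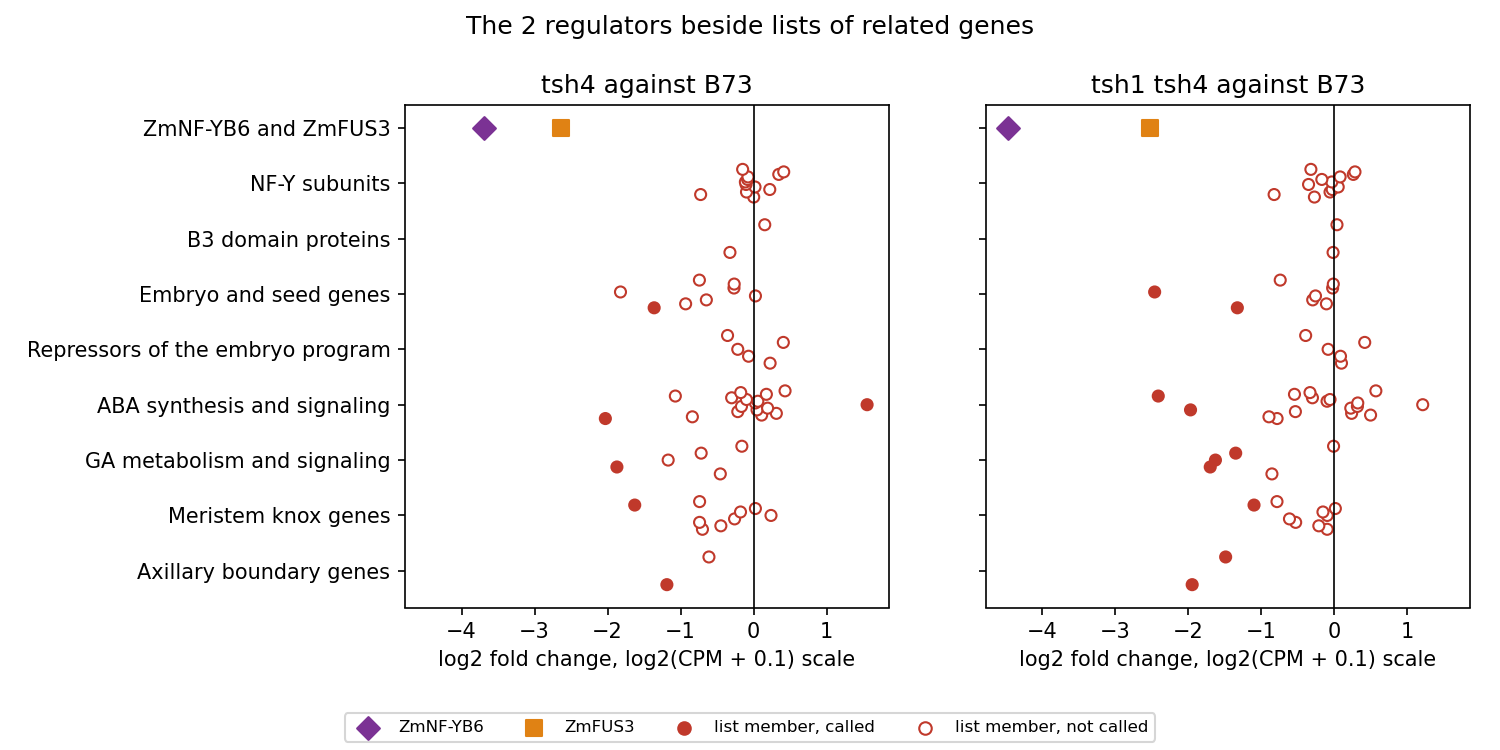
Log2 fold changes against B73, on the log2(CPM + 0.1) scale, in *tsh4* and in *tsh1 tsh4* for *ZmNF-YB6*, *ZmFUS3* and the members of 8 gene lists; filled circles were called and open circles were not. *ZmNF-YB6* (-3.69 and -4.47) and *ZmFUS3* (-2.64 and -2.52) lie below every listed gene in both panels.

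Markers of cells next to the bract, and of the bract itself, were examined in the same libraries. All 9 *knox* genes of the meristem and stem, and both boundary genes *BA1* and *baf1*, which are needed to start axillary meristems, were detected in all genotypes. Summed *knox* levels ran from 922 to 1135 CPM in B73, 664 to 971 in *tsh1*, 555 to 774 in *tsh4* and 590 to 966 in the double mutant, and 1 of the 9, *gnarley1*, was called lower in *tsh4* and *tsh1 tsh4* (log2 fold change of -1.63 and -1.10). None of the 9 was called in *tsh1* by limma, edgeR or DESeq2, with 2 at an unadjusted p under 0.05 in limma, and *kn1* was not called in any mutant. The summed boundary genes ran from 160 to 184 CPM in B73, 110 to 124 in *tsh1*, 75.3 to 140 in *tsh4* and 47.5 to 71.4 in the double mutant. *baf1* fell by 1.19 in *tsh4* and fell by 1.95 in *tsh1 tsh4*, and *BA1* fell by 1.49 in *tsh1 tsh4*, beside 1.77% and 3.15% of all genes called lower in these mutants. *BA1* was not called in *tsh4*, and neither boundary gene was called in *tsh1* by limma, edgeR or DESeq2, although both had an unadjusted p under 0.05 in limma. The YABBY gene *zyb15*, which the study used as a marker of the suppressed bract itself, averaged 1270 CPM in B73. It averaged 1642, 1496 and 1551 CPM in *tsh1*, *tsh4* and *tsh1 tsh4*. In deviations within genotypes, *ZmNF-YB6* had r = 0.523 with *BA1*, -0.191 with *baf1*, -0.0847 with *kn1* and -0.429 with *zyb15*, and *ZmFUS3* had -0.129, -0.482, 0.0326 and 0.407. The part of the captured cells in the levels of *ZmNF-YB6* and *ZmFUS3* was not tested.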

How the data were processed

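The 12 libraries of ear bract primordia comprised 3 in each of 4 genotypes. The authors trimmed single-end reads with Trimmomatic 0.36, aligned them to B73 AGPv3.31 with STAR 2.6.0a, counted them per gene model with featureCounts, kept genes above 0.25 CPM in at least 3 libraries, and deposited CPM scaled by TMM in edgeR 3.22.5 (unit signal, rounded to 3 decimals). The strand setting of the counting was not given in the sources used here, so reads of an antisense partner cannot be told apart. Both *ZmNF-YB6* and *ZmFUS3* were above the authors' minimum in all 12 libraries. Between 99.96% and 100% of the deposited values were whole multiples of what 1 read is worth, within the rounding, and gave back the reads, 49481413 to 110703826 per library. A count of 0 allows up to 3 reads, or 0.0265 to 0.0651 CPM.

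Groups came from the sample labels. limma 3.58.1 (trended variance) was fitted to log2(CPM + 0.1) of all 12 libraries with genotype as the only term, and p-values were Benjamini-Hochberg adjusted over 20168 genes. Calls needed an adjusted p not above 0.05 and a log2 change of 1 or more in size, and the interaction an adjusted p only. Because the deposited values are CPM, edgeR 4.0.16 and DESeq2 1.42.0 were run on the recovered reads as alternatives only. Other alternatives were pseudocounts of 0.01 and 1, a mean of at least 1 CPM, only the genotypes compared, no trend, a replicate block, equal library totals, median centring and leaving out each library. Fold changes on the log2(CPM + 0.1) scale understate the change of low genes. The fits were tested on simulated data.

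The members and gene lists were chosen with earlier results of these data known. The lists were matched by gene symbol in RefSeq (Zm-B73-REFERENCE-NAM-5.0), which named 14378 of the 20168 identifiers and neither *ZmNF-YB6* nor *ZmFUS3*, whose names are those of the study. The table held symbols without descriptions, so the lists, first planned on descriptions, were redrawn on symbols and some are short. No coordinates are given, since that build differs from the files'. From each list, genes called in any mutant (up to 6, by absolute log2 fold change) and the 3 highest in mean CPM were to be named, and for each member the 5 genes of highest Pearson r among those with a mean of at least 1 CPM. Other named genes were chosen after their values were seen.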

Additional observations from a re-analysis of the deposited data

How the results depend on the processing

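In the 10 alternatives that kept all libraries, *ZmNF-YB6* and *ZmFUS3* kept their direction and stayed called or not called in all 6 comparisons, as they did for the interaction in the 9 that gave one (the fit to only the genotypes compared has none). The uncalled *tsh1* value of *ZmNF-YB6* ranged from -1.17 to -0.94. These alternatives moved the *tsh4* value of *ZmNF-YB6* only between -3.71 and -3.62 and that of *ZmFUS3* between -2.71 and -2.27, and the *tsh1 tsh4* values between -4.49 and -4.24 and between -2.58 and -2.18.

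Leaving out 1 library gave -3.99 to -3.42 (*ZmNF-YB6*) and -2.79 to -2.49 (*ZmFUS3*) in *tsh4*, and -5.00 to -3.80 and -2.67 to -2.37 in *tsh1 tsh4*, against B73. It gave -1.50 to -0.49 and -0.60 to -0.21 in *tsh1*, -1.31 to -0.11 and 0.03 to 0.16 for *tsh1 tsh4* against *tsh4*, and -3.98 to -2.70 and -2.31 to -1.92 for *tsh1 tsh4* against *tsh1*. For *tsh4* against *tsh1* it gave -3.20 to -2.19 for *ZmNF-YB6* and -2.42 to -2.04 for *ZmFUS3*. The *ZmNF-YB6* call was lost without *tsh4* replicate 2 (-2.32, adjusted p = 0.0503 in limma). Among the limma fits that left out 1 library this adjusted p was the highest, and the lowest was 0.00135. The interaction of *ZmNF-YB6* ranged from -0.29 to 0.99, with -0.29 without *tsh1* replicate 1 and -0.21 without *tsh1 tsh4* replicate 1, and that of *ZmFUS3* from 0.33 to 0.71.

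Counts of called genes moved more. With a pseudocount of 1 they were 150 instead of 234 in *tsh1*, 414 instead of 768 in *tsh4*, 650 instead of 1178 in *tsh1 tsh4*, 385 instead of 727 for *tsh1 tsh4* against *tsh1* and 364 instead of 679 for *tsh4* against *tsh1*. With a mean of at least 1 CPM they were 763 in *tsh1 tsh4*, 85 for *tsh1 tsh4* against *tsh4* (136 in the fit reported) and 480 for *tsh1 tsh4* against *tsh1*. DESeq2 called 370 genes in *tsh1*, 214 for *tsh1 tsh4* against *tsh4* and 157 interactions instead of 58. Leaving out 1 library gave 156 to 289 genes in *tsh1*, 575 to 834 in *tsh4*, 952 to 1212 in *tsh1 tsh4*, 71 to 160 for *tsh1 tsh4* against *tsh4* and 34 to 84 interactions. The cause of these differences was not tested.

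Same-numbered libraries of different genotypes had correlations of their deviations from -0.408 to 0.731, with a median of 0.135 and values over 0.1 in 11 of 18 pairs, beside a median of 0.00962 and 14 of 36 for different numbers. Since not every same-numbered pair was over 0.1 and the labels give a number no other meaning, the numbers were not taken as pairs. The number did go with depth, since replicate 1 was the deepest library of every genotype. It had 110703826, 87573173, 97914591 and 80693811 reads on the listed genes in B73, *tsh1*, *tsh4* and *tsh1 tsh4*. All other libraries had 49481413 to 61451736 reads. Whether the libraries of replicate 1 shared more than their depth was not tested. With a replicate block, *ZmNF-YB6* was at an adjusted p of 0.00227 in *tsh4* and 0.000321 in *tsh1 tsh4*, *ZmFUS3* at 5.67e-05 and 3.82e-05 (limma), and 740 and 1112 genes were called.

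By Spearman rho, 2 of the 5 genes closest to *ZmNF-YB6* and 0 of the 5 closest to *ZmFUS3* were the same. With 3 libraries a genotype, the depth did not limit the values of either gene as much as the spread between replicates did for *ZmNF-YB6*. Whether the replicates were separate plants was not given beyond the term biological replicate.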
